A study of Mus musculus with 9 samples.

Results

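The set consists of 10 genes of immune checkpoint signaling and costimulation (Pdcd1, Cd274, Pdcd1lg2, Cd80, Cd86, Cd40, Havcr2, Vsir, Lgals9 and Sirpa), which were looked up by mouse symbol among the 53801 genes of the count table. All 10 were found once, all 10 passed the filter on low counts, and they stand among 12538 protein-coding genes that were tested. RNA was sequenced from CD11b+ cells, which were sorted out of brain hemispheres bearing a GL261 glioma, in 9 libraries. The GL261 line is a transplanted mouse glioma that carried tdTomato and luciferase reporters, and it was implanted into the striatum of male C57BL/6J mice aged 10 to 12 weeks at the start.

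The CTR mice (2 libraries) received saline by gavage 2 times a day. The OAT-1746 mice (2 libraries) received this oral inhibitor of arginase 1 and 2 at 50 mg/kg, given 2 times a day from day 1. The anti-PD-1 mice (2 libraries) received an antibody against PD-1 at 2.5 mg/kg by intraperitoneal injection on days 8, 10, 12 and 14, and the COMB mice (3 libraries) received both agents. The methods of the study place the sort at day 28 after implantation and a figure legend at day 21. The sort took every CD11b+ cell, so that microglia, monocytes, macrophages and other myeloid cells were measured as a mixture. According to the study, this mixture also holds NK cells. Total counts ran from 13048075 (COMB replicate 1) to 18796479 (anti-PD-1 replicate 2). Levels are given as CPM, which are counts scaled to the library size after TMM normalization, and levels of different genes are compared only as CPM per kilobase of exon (RPKM).

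T cells are restrained when the receptor PD-1 binds its ligands PD-L1 and PD-L2, and they are activated when CD80 and CD86 bind CD28 or when CD40 on the presenting cell meets its ligand. TIM-3, VISTA and galectin-9 add further inhibitory contacts, and SIRPα on myeloid cells receives the CD47 signal that holds back phagocytosis. In gliomas, microglia and infiltrating myeloid cells carry many of these molecules.

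Per length, the members covered a wide range of levels. Vsir had a mean of 427 RPKM ± 136 (SD, n = 9) over all libraries and Sirpa 405 ± 92.1 (SD, n = 9), and their ranges overlapped. Lgals9 followed with 185 RPKM ± 37.8 (SD, n = 9), and its range was separate from those of Sirpa above it and Cd86 below it. Cd86 (73.5 RPKM), Havcr2 (64.7 RPKM), Cd274 (51.2 RPKM) and Cd40 (31.0 RPKM) came next, each overlapping with its neighbor in this order. Pdcd1lg2 (7.58 RPKM), Cd80 (5.45 RPKM) and Pdcd1 (3.13 RPKM) had the lowest means, and their ranges overlapped with each other and with that of Cd40. No member was near the floor of 3 counts. The lowest count was 30 for Pdcd1lg2, in OAT-1746 replicate 2, and 34 for Pdcd1, in COMB replicate 3. Between its lowest and its highest library, Pdcd1lg2 varied most (24.9-fold in CPM), followed by Cd40 (8.66-fold) and Pdcd1 (5.15-fold), while Cd86 varied least (1.41-fold).

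**Figure D1:**
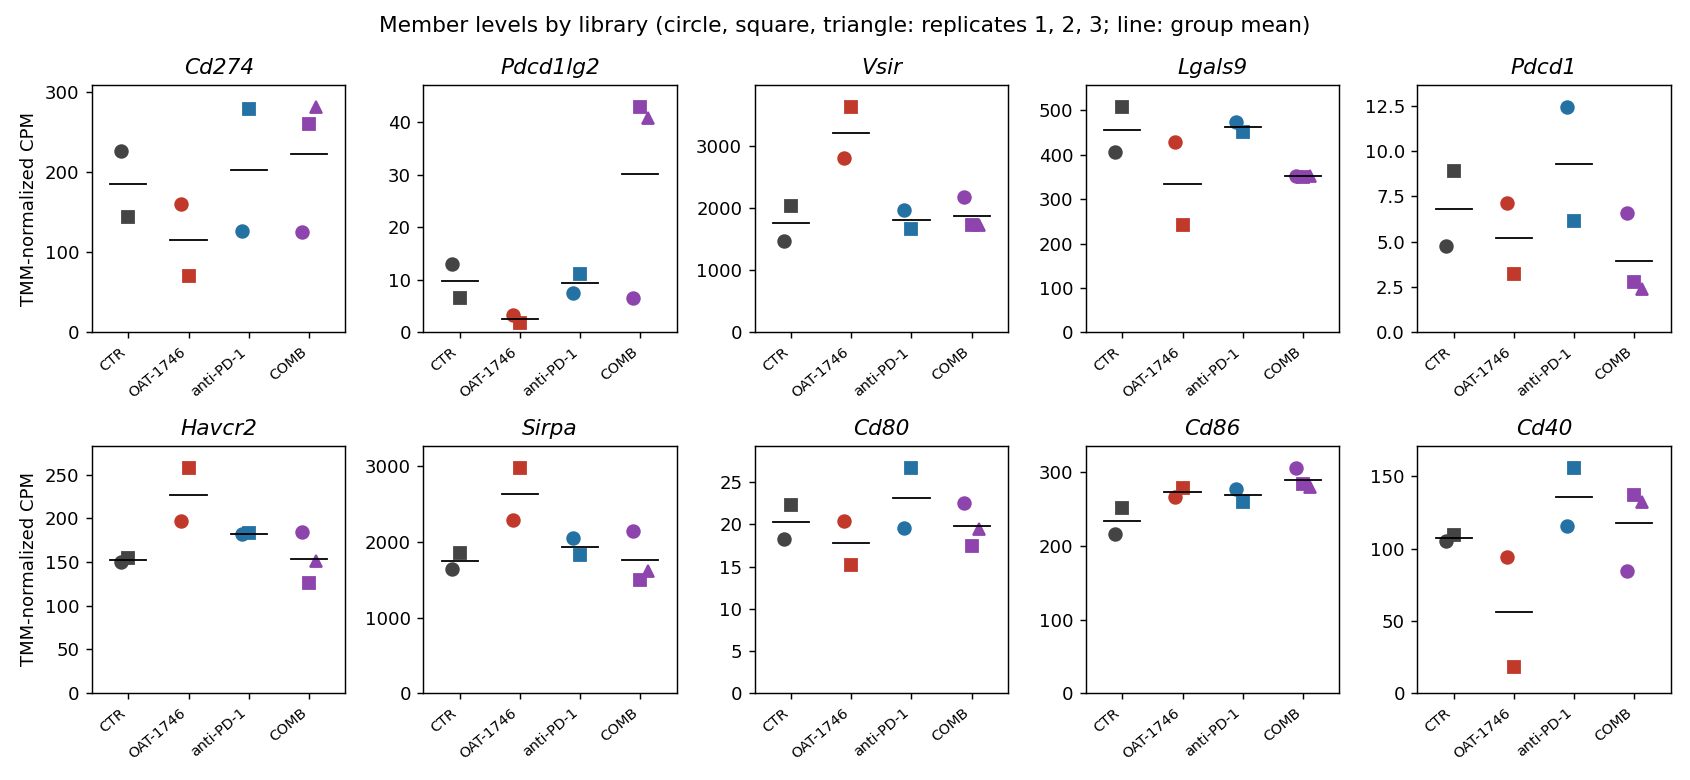
Level of each member in TMM-normalized CPM (vertical axes from 0) in the 4 groups, with symbols for the replicates and a line for each group mean. Vsir was at 2816 and 3629 CPM in the OAT-1746 libraries and at or below 2191 CPM in the other libraries, and Pdcd1lg2 stood at 42.8 and 40.8 CPM in COMB replicates 2 and 3.

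The genes of both PD-1 ligands lie next to each other on chromosome 19 of the mouse genome (GRCm38). Cd274 (ENSMUSG00000016496) encodes PD-L1 and spans 29367455 to 29388095 on the plus strand, and Pdcd1lg2 (ENSMUSG00000016498) encodes PD-L2 and spans 29410919 to 29471161 on the same strand. Their promoters are shown because these neighbors are both ligands of the receptor that the antibody blocks. The 250 bases before each start in RefSeq (GRCm38.p6, plus strand, chr19:29367188-29367437 and chr19:29410669-29410918) are written 5′ to 3′. The RefSeq start of Cd274 lies upstream of the span given above, so its window does not reach that span. The window of Pdcd1lg2 ends directly before its span. Capitals mark the interferon-stimulated response element core (GAAANNGAA, here on the minus strand) in Cd274 and the κB consensus in Pdcd1lg2.
Cd274: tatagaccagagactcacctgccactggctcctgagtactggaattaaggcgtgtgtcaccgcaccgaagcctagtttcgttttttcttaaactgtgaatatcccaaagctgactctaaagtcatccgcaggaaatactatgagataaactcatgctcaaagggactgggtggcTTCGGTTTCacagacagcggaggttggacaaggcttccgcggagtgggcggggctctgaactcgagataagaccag
Pdcd1lg2: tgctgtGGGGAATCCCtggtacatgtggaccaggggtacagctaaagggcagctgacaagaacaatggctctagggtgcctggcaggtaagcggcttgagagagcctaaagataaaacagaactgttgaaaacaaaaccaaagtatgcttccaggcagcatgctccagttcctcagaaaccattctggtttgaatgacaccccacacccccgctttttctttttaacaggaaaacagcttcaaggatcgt
The gamma-activated site (TTCNNNGAA), the response element core and the κB consensus were searched on both strands in the promoters of 7 members that had an entry. Promoters of Cd86, Cd40 and Sirpa had no entry. The response element core was found in 2 of the 7 promoters, those of Cd274 and Lgals9, and in 7.13% of all 32851 promoters of this length. The κB consensus was found in 1 of the 7, that of Pdcd1lg2, and in 3.9% of all promoters. The gamma-activated site, which shares letters with the response element core, was found in 0 of the 7 and in 7.02% of all promoters. A match describes the letters in this window and is no evidence of binding.

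Pdcd1lg2 was at 13.1 and 6.65 CPM in the CTR libraries, 3.38 and 1.72 CPM in OAT-1746, 7.60 and 11.1 CPM in anti-PD-1, and 6.53, 42.8 and 40.8 CPM in COMB. Both OAT-1746 libraries were below all other libraries, and COMB replicate 1 was on the level of the CTR and anti-PD-1 libraries while COMB replicates 2 and 3 were far above them. Between COMB and OAT-1746 the log2 fold change was 3.56 (SE 0.79, 11.8-fold, edgeR adjusted p = 0.0287), with all 3 COMB libraries above both OAT-1746 libraries. edgeR called this difference in the main fit, but not when the replicate numbers were fitted as a block. This call was lost without OAT-1746 replicate 2 (log2 fold change 3.12, edgeR adjusted p = 0.176) and without COMB replicate 2 (3.22, adjusted p = 0.106) or COMB replicate 3 (3.28, adjusted p = 0.107), and it was made neither by limma voom (adjusted p = 0.0977) nor by edgeR from the COMB and OAT-1746 libraries alone (adjusted p = 0.0836). Without anti-PD-1 replicate 1 or 2, which this comparison does not contain but whose spread enters the shared model, the adjusted p was 0.0504 and 0.0503.

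Against CTR, Pdcd1lg2 had a log2 fold change of -1.95 (SE 0.80, edgeR adjusted p = 0.134) in OAT-1746, where DESeq2 gave an adjusted p of 0.0360, and of 1.61 (SE 0.69, edgeR adjusted p = 0.752) in COMB. Against anti-PD-1, COMB differed by 1.68 (SE 0.69, edgeR adjusted p = 0.661). The COMB libraries overlapped with the CTR and with the anti-PD-1 libraries, so that the higher COMB mean of 30.1 CPM ± 20.4 (SD, n = 3) rested on replicates 2 and 3. The interaction, in which the difference between OAT-1746 and CTR is subtracted from that between COMB and anti-PD-1, was 3.63 (SE 1.06, edgeR adjusted p = 0.109, DESeq2 adjusted p = 0.00443).

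Cd274 was at 227 and 144 CPM in CTR, 160 and 70.4 CPM in OAT-1746, 126 and 278 CPM in anti-PD-1, and 125, 260 and 280 CPM in COMB. The groups overlapped in all comparisons, and the replicates of anti-PD-1 lay further apart than the group means of CTR and COMB. The edgeR adjusted p of Cd274 was 0.371 for OAT-1746 against CTR, 0.994 for anti-PD-1 against CTR, 0.920 for COMB against CTR and 0.186 for COMB against OAT-1746. In the last comparison its log2 fold change was 0.95 with all libraries and 1.65 without OAT-1746 replicate 1. As with Pdcd1lg2, the lowest level was in OAT-1746 replicate 2 and COMB replicate 1 was below COMB replicates 2 and 3.

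Vsir encodes VISTA, an inhibitory molecule of the B7 family on myeloid cells. It was at 1476 and 2044 CPM in CTR, 2816 and 3629 CPM in OAT-1746, 1968 and 1670 CPM in anti-PD-1, and 2191, 1731 and 1731 CPM in COMB. Both OAT-1746 libraries were above the other 7. Vsir was lower in COMB than in OAT-1746, with a log2 fold change of -0.77 (SE 0.21, edgeR adjusted p = 0.0420), and DESeq2 (adjusted p = 0.00919) and limma voom (adjusted p = 0.0277) also called it. With the replicate numbers fitted as a block, edgeR did not call it. In edgeR the call was lost without any of the 4 CTR and anti-PD-1 libraries (adjusted p from 0.0538 to 0.0652), without OAT-1746 replicate 2 (log2 fold change -0.59, adjusted p = 0.245) and without COMB replicate 2 (adjusted p = 0.143) or 3 (adjusted p = 0.145), and in a fit of these groups alone (adjusted p = 0.0873). Between OAT-1746 and CTR its log2 fold change was 0.87 (SE 0.23), which edgeR did not call (adjusted p = 0.0702) and DESeq2 did (adjusted p = 0.0104).

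Lgals9 encodes galectin-9, a ligand of TIM-3. It was at 406 and 506 CPM in CTR, 428 and 241 CPM in OAT-1746, 473 and 450 CPM in anti-PD-1, and 353, 349 and 352 CPM in COMB. The COMB libraries were close to each other and below all CTR and anti-PD-1 libraries, but edgeR did not call the difference from CTR (adjusted p = 0.783) or from anti-PD-1 (adjusted p = 0.755). How many of all genes were set apart in this way was not counted for these comparisons, so the separation is only described.

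Among the receptors, Havcr2 (TIM-3) was at 150 and 155 CPM in CTR, 197 and 257 CPM in OAT-1746, 182 and 183 CPM in anti-PD-1, and 184, 126 and 151 CPM in COMB. Sirpa was at 1639 and 1850 CPM in CTR, 2290 and 2977 CPM in OAT-1746, 2048 and 1826 CPM in anti-PD-1, and 2151, 1504 and 1620 CPM in COMB. Both genes had their highest levels in the OAT-1746 libraries, apart from all other libraries. Between OAT-1746 and CTR the log2 fold change was 0.57 (SE 0.21, edgeR adjusted p = 0.104) for Havcr2 and 0.59 (SE 0.23, edgeR adjusted p = 0.115) for Sirpa. Between COMB and OAT-1746 it was -0.56 (SE 0.19, edgeR adjusted p = 0.0666) for Havcr2 and -0.58 (SE 0.20, edgeR adjusted p = 0.0754) for Sirpa, and DESeq2 (adjusted p = 0.0486) and limma voom (adjusted p = 0.0436) called Sirpa there. Without OAT-1746 replicate 2 these values were -0.36 for Havcr2 (edgeR adjusted p = 0.382) and -0.39 for Sirpa (edgeR adjusted p = 0.397), while edgeR called both genes without OAT-1746 replicate 1 (adjusted p = 0.0221 and 0.0327) and without COMB replicate 1 (adjusted p = 0.0255 and 0.0257). The study counted only reads that reached a limit of mapping quality. Reads that Sirpa shares with related genes of its family may therefore be missing from its level, which was not tested.

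Pdcd1 encodes PD-1, the target of the antibody. Per length its mean over the 9 libraries was the lowest of the set, but in OAT-1746 Pdcd1lg2 was lower (1.30 RPKM against 2.68 RPKM), and in anti-PD-1 their means were alike (4.77 and 4.80 RPKM). Its CPM was 4.75 and 8.88 in CTR, 7.16 and 3.20 in OAT-1746, 12.4 and 6.14 in anti-PD-1, and 6.60, 2.77 and 2.41 in COMB. Replicates within each group differed by about as much as the groups, and all groups overlapped. The log2 fold change between COMB and anti-PD-1 was -1.24 (SE 0.53, edgeR adjusted p = 0.682), and it was -0.60 without anti-PD-1 replicate 1.

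For costimulation, Cd86 was between 217 CPM (CTR replicate 1) and 306 CPM (COMB replicate 1) and Cd80 between 15.2 CPM (OAT-1746 replicate 2) and 26.7 CPM (anti-PD-1 replicate 2). The 3 COMB libraries were above the other 6 libraries for Cd86 by a small margin, and edgeR called neither gene in any comparison. How many of all genes shared this order of libraries was not counted. Cd40, which receives helper signals on presenting cells, was at 105 and 109 CPM in CTR, 94.1 and 18.0 CPM in OAT-1746, 115 and 156 CPM in anti-PD-1, and 84.6, 137 and 132 CPM in COMB. A single library, OAT-1746 replicate 2, was far below the others for Cd40. The edgeR adjusted p of Cd40 was 0.284 between OAT-1746 and CTR and 0.182 between COMB and OAT-1746, and limma voom called the latter (adjusted p = 0.0344). Its log2 fold changes in these comparisons were -0.93 and 1.07, and they were -2.57 and 2.71 without OAT-1746 replicate 1.

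**Figure D2:**
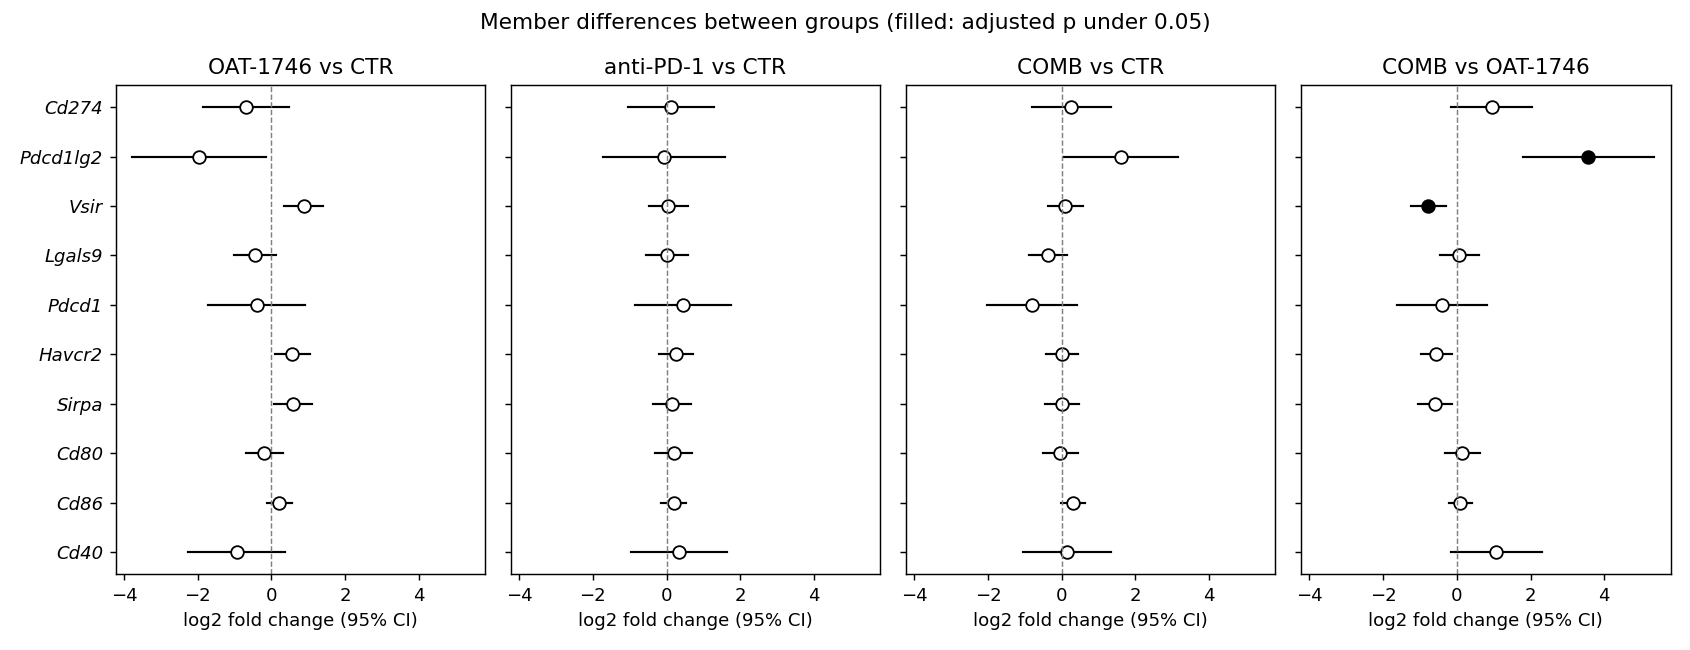
Log2 fold change of each member (horizontal axis) with its 95% confidence interval in 4 comparisons, from the edgeR fit of all 9 libraries, with filled points for an adjusted p under 0.05. The filled points are Pdcd1lg2 (3.56) and Vsir (-0.77) in COMB against OAT-1746.

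Counted over the set, edgeR's quasi-likelihood test called 0 of 10 members between OAT-1746 and CTR, where it called 0% of the tested genes. At an unadjusted p under 0.05 it found 4 members (Vsir, Havcr2 and Sirpa higher, Pdcd1lg2 lower) beside 32.3% of all genes, DESeq2 called 2 members (Vsir and Pdcd1lg2) beside 15.7% of all genes, and limma voom 0 beside 0%. Without OAT-1746 replicate 1, edgeR called 5 members and 3647 of the 12538 genes. The OAT-1746 libraries were wholly above the CTR libraries for 4 members (Cd86, Havcr2, Vsir and Sirpa), as for 30.8% of all genes, and wholly below for 2 (Pdcd1lg2 and Cd40), as for 32.1%. The shares in the set are thus near those of all genes. The median log2 fold change was -0.29 over the members and 0.01 over all genes.

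Between COMB and OAT-1746, edgeR called 2 of 10 members beside 15.8% of all genes, and 4 members had an unadjusted p under 0.05 (Pdcd1lg2 higher, Vsir, Havcr2 and Sirpa lower) beside 37.1% of all genes. DESeq2 called 3 members (Pdcd1lg2, Vsir and Sirpa) beside 24.4% of all genes, and limma voom 3 (Cd40, Vsir and Sirpa) beside 22.4%. The edgeR count rose to 6 members and 4058 of the 12538 genes without OAT-1746 replicate 1, and to 4 members and 2918 genes without COMB replicate 1. It was 1 member without either CTR library (847 and 845 genes) and 0 members without either anti-PD-1 library (666 and 660 genes), OAT-1746 replicate 2 (27 genes), COMB replicate 2 (14 genes) or COMB replicate 3 (1 gene). The COMB libraries were wholly above the OAT-1746 libraries for 2 members (Pdcd1lg2 and Cd86) beside 25% of all genes, and wholly below for 3 (Havcr2, Vsir and Sirpa) beside 28.9%. The median log2 fold change was 0.08 over the members and 0.00 over all genes.

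For anti-PD-1 against CTR, edgeR called 0 of 10 members and 0% of all genes, and 0 members had an unadjusted p under 0.05 beside 5.12% of all genes, with 0 member calls by DESeq2 beside 0.112% and 0 by limma voom beside 0%. For COMB against CTR it called 0 members and 0% of all genes, with 1 member (Pdcd1lg2) at an unadjusted p under 0.05 beside 6.58% of all genes, and 0 member calls by DESeq2 beside 0.279% and by limma voom beside 0.016%. For COMB against anti-PD-1 it called 0 members and 0% of all genes, with 2 members (Pdcd1lg2 and Pdcd1) at an unadjusted p under 0.05 beside 7.23%, and 0 member calls by DESeq2 beside 0.375% and by limma voom beside 0.279%. For the interaction it called 0 members and 0.359% of all genes, with 4 members (Pdcd1lg2, Havcr2, Vsir and Sirpa) at an unadjusted p under 0.05 beside 26.2%. DESeq2 called 1 member (Pdcd1lg2) beside 8.4% of all genes and limma voom 0 beside 3.41% for the interaction, and edgeR called 3 members and 2756 genes without OAT-1746 replicate 1, and 1 member and 419 genes without COMB replicate 1. These comparisons share libraries, so they do not support each other.

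In bulk RNA, fewer cells of a type and less RNA per cell cannot be told apart, so cell type markers are given beside the members. The 6 microglia markers summed to 10393 and 16008 CPM in CTR, 21189 and 26886 CPM in OAT-1746, 15344 and 12194 CPM in anti-PD-1, and 18798, 14165 and 13309 CPM in COMB. Compared with CTR, OAT-1746 libraries had more of all 6 at an unadjusted p under 0.05, of which edgeR called 0, limma voom 0 and DESeq2 5. In COMB, 5 of the 6 were lower than in OAT-1746 at an unadjusted p under 0.05, and edgeR called 2 of them, P2ry12 (log2 fold change -1.07, SE 0.28, adjusted p = 0.0383) and Sall1 (-1.06, SE 0.25, adjusted p = 0.0331), in the same direction as Vsir. Vsir, Havcr2 and Sirpa were likewise highest in the OAT-1746 libraries and, within COMB, in replicate 1. The sums of the neutrophil, dendritic cell, border-associated macrophage and B cell lists were also highest in the OAT-1746 libraries. Those of the monocyte and macrophage, T cell and NK cell lists were not. A single gene held most of the neutrophil (Csf3r), dendritic cell (Fscn1), border-associated macrophage (Mrc1) and B cell (Cd79b) sums. These sums therefore mainly follow that gene and do not stand for the whole list. The 6 neutrophil markers summed to 297 and 428 CPM in CTR, 469 and 612 CPM in OAT-1746, 333 and 335 CPM in anti-PD-1, and 384, 384 and 372 CPM in COMB, and all 3 tools called Csf3r, which held most of this sum, lower in COMB than in OAT-1746 (-0.74, SE 0.17, edgeR adjusted p = 0.0302). S100a8 (0.31, SE 0.30, edgeR adjusted p = 0.486) and S100a9 (0.16, SE 0.32, edgeR adjusted p = 0.750) did not share this difference. They were the 2 of the 6 with log2 fold changes above 0, and the median of the list was -0.33. Against CTR, S100a8 and S100a9 had log2 fold changes of 1.07 (SE 0.31, edgeR adjusted p = 0.689) and 0.93 (SE 0.33, edgeR adjusted p = 0.747) in COMB, both at an unadjusted p under 0.05. There, 3 of the 6 were above 0 and the median was 0.07. The 7 dendritic cell markers summed to 340.5 and 558 CPM in CTR, 810 and 857 CPM in OAT-1746, 606 and 531 CPM in anti-PD-1, and 606, 438 and 459 CPM in COMB. Most of this sum was Fscn1 (794 of the 857 CPM), which all 3 tools called lower in COMB than in OAT-1746 (-0.89, SE 0.25, edgeR adjusted p = 0.0440). The other 6 had log2 fold changes above 0 in this comparison, none of them called by any tool, and the median of the list was 0.22. Between OAT-1746 and CTR, edgeR called 0 of these 7, while at an unadjusted p under 0.05 Fscn1 was higher (1.06, SE 0.28, edgeR adjusted p = 0.0702, DESeq2 adjusted p = 0.0104) and Clec9a (-1.25, SE 0.48, edgeR adjusted p = 0.116) and Flt3 (-0.81, SE 0.35, edgeR adjusted p = 0.146) were lower. The part of these cells in the levels of Vsir, Havcr2 and Sirpa was not tested.

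The 6 markers of monocytes and macrophages summed to 1351 and 2181 CPM in CTR, 2241 and 352 CPM in OAT-1746, 2613 and 2509 CPM in anti-PD-1, and 1473, 1647 and 1598 CPM in COMB. Per length, Plac8 had the highest level of the 6 in all 9 libraries (39.9 to 637 RPKM), while in CPM it was exceeded by Ly6c2 in 3 libraries and by F13a1 in OAT-1746 replicate 2. Their lowest sum was in OAT-1746 replicate 2, the library in which Cd274, Pdcd1lg2, Cd40 and Lgals9 were lowest. In COMB, where Pdcd1lg2 was at 6.53 CPM in replicate 1 and 42.8 CPM in replicate 2, the sums were 1473 and 1647 CPM. Of the 6, all 3 tools called F13a1 higher in COMB than in OAT-1746 (0.73, SE 0.20, edgeR adjusted p = 0.0426), as edgeR and DESeq2 did Pdcd1lg2. In this comparison 4 of the 6 had log2 fold changes above 0 (median 0.47). Ly6c2 (-0.46, SE 0.88, edgeR adjusted p = 0.733) and Vcan (-0.71, SE 0.53, edgeR adjusted p = 0.351) were below 0. Between OAT-1746 and CTR, DESeq2 called F13a1 (adjusted p = 0.0486) and Ccr2 (adjusted p = 0.0422) lower, which edgeR did not. Their part in the results was not tested.

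**Figure D3:**
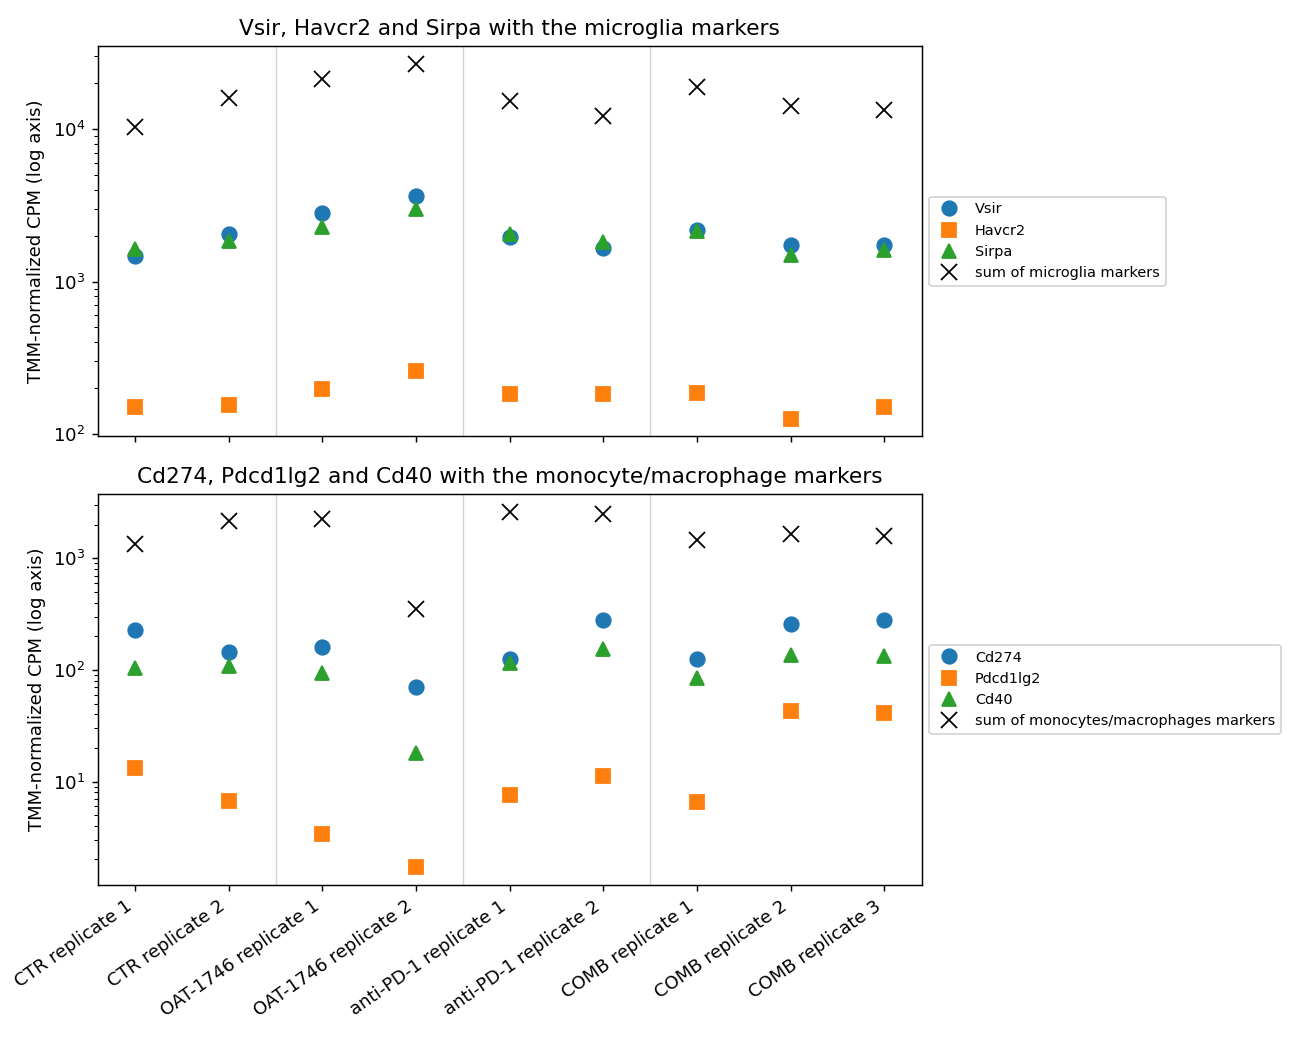
Levels in TMM-normalized CPM (log axes) in the 9 libraries, with Vsir, Havcr2 and Sirpa beside the summed microglia markers in the upper panel and Cd274, Pdcd1lg2 and Cd40 beside the summed monocyte and macrophage markers in the lower panel. The microglia sum was 26886 CPM and the monocyte and macrophage sum 352 CPM in OAT-1746 replicate 2.

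The sorted cells carried their defining genes, with Itgam, the gene of CD11b, at 294 to 446 CPM, Ptprc at 379 to 760 CPM and Csf1r at 6299 to 11551 CPM. Itgam and Csf1r were highest in the OAT-1746 libraries, while Ptprc was lower there (554 and 379 CPM) than in CTR (708 and 676 CPM). The 8 T cell markers summed to 9.79 and 8.65 CPM in CTR, 7.51 and 13.1 CPM in OAT-1746, 16.1 and 7.50 CPM in anti-PD-1, and 11.3, 8.25 and 10.4 CPM in COMB, of which Cd4 made up 4.49 to 10.8 CPM, with Cd3d, Cd3e and Cd3g at 0 counts in CTR replicate 2 and Cd3e, Cd8b1 and Trac at 0 in OAT-1746 replicate 1. The Pdcd1 counts were thus measured in libraries with few T cell transcripts. The 6 NK cell markers summed to 24.9 and 27.3 CPM in CTR, 36.2 and 11.9 CPM in OAT-1746, 149 and 70.8 CPM in anti-PD-1, and 34.9, 67.6 and 69.8 CPM in COMB. Anti-PD-1 replicate 1 held the highest T cell and NK cell sums, the most counts of Trac (28), Trbc2 (23) and Cd8b1 (19), and the highest Pdcd1 level, and the part of T and NK cells in the Pdcd1 level was not tested. Sums ranged from 250 to 442 CPM for 5 markers of border-associated macrophages and from 10.5 to 25.4 CPM for 4 of B cells, and both were highest in the OAT-1746 libraries. The B cell sum was mostly Cd79b (10.03 to 25.4 CPM), with its highest value in OAT-1746 replicate 2, where Cd79a and Ms4a1 were at 0 counts.

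Wider lists placed the members among related genes. Of 14 further B7 family and other ligands, 10 were tested, and between COMB and OAT-1746 edgeR called 1 higher (Cd48, log2 fold change 0.56, SE 0.16, adjusted p = 0.0442) and 3 lower. The lower genes were Icosl, the ligand of ICOS (-0.98, SE 0.19, adjusted p = 0.0233), Ceacam1 (-0.96, SE 0.23, adjusted p = 0.0336) and Cd276 (-0.62, SE 0.16, adjusted p = 0.0399). Like Vsir, Icosl had its 2 highest levels in the OAT-1746 libraries (135 and 196 CPM). The TNF superfamily list holds 6 costimulatory ligands, of which 5 were tested, and the receptor Tnfrsf14. Of the ligands, edgeR called Tnfsf14 higher in COMB than in OAT-1746 (3.37, SE 0.81, edgeR adjusted p = 0.0336, with 30 and 6 counts in OAT-1746). It was not called by limma voom (adjusted p = 0.101). Tnfsf4 was also called, but it had 0 counts in both OAT-1746 libraries and 2, 5 and 4 counts in COMB. Only the anti-PD-1 libraries reached 10 counts of Tnfsf4 (10 and 12), so no fold is given and its call is not read as a difference. Tnfrsf14, the receptor for Tnfsf14, was not called by edgeR (adjusted p = 0.0507) but by DESeq2 (adjusted p = 0.0184).

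Of 15 receptors of T and NK cells, 11 were tested. Tnfrsf9 (3.30, SE 0.67, edgeR adjusted p = 0.0256) and Cd244a (1.47, SE 0.40, adjusted p = 0.0414) were higher and Lag3 (-1.03, SE 0.27, adjusted p = 0.0392) lower in COMB than in OAT-1746. Tnfrsf9 rests on few reads, with 21 and 3 counts in OAT-1746. All 6 NK cell markers had log2 fold changes above 0 in this comparison (median 0.83), as Tnfrsf9 and Cd244a had and Lag3 had not. edgeR called 0 of these 6 markers. Gzma among them (1.47, SE 0.53, edgeR adjusted p = 0.0823) was called by DESeq2 (adjusted p = 0.0173) and limma voom (adjusted p = 0.0427). Between anti-PD-1 and CTR, all 6 NK cell markers were above 0 as well (median 2.04). There the log2 fold change was 1.14 for Tnfrsf9 (SE 0.63, edgeR adjusted p = 0.9665) and -0.03 for Cd244a (SE 0.40, edgeR adjusted p = 0.996). For Lag3 it was 0.77 (SE 0.30, edgeR adjusted p = 0.951). The part of NK cells in the levels of these receptors was not tested. Lag3, an inhibitory receptor, was at 250.4 and 468 CPM in the OAT-1746 libraries and at 272 and 242 CPM in anti-PD-1, so that, unlike Vsir, it did not set both OAT-1746 libraries apart from all others.

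Of 13 inhibitory receptors of myeloid cells and their ligands, 12 were tested and 1 was called, Siglece (-0.74, SE 0.16, edgeR adjusted p = 0.0286, COMB against OAT-1746). In this comparison edgeR did not call Pilra (1.94, SE 0.61, adjusted p = 0.0581), which DESeq2 (adjusted p = 0.0320) and limma voom (adjusted p = 0.0190) did, and no tool called Cd300a (0.13, SE 0.13, edgeR adjusted p = 0.494). Of 22 genes of signaling and control of these axes, 21 were tested and 1 was called, Selplg, which encodes PSGL-1, a binding partner of VISTA (-0.90, SE 0.22, edgeR adjusted p = 0.0347). edgeR did not call Traf5 (-0.60, SE 0.18, adjusted p = 0.0552), which DESeq2 (adjusted p = 0.0443) and limma voom (adjusted p = 0.0436) did, or Cmtm4, a regulator of PD-L1 protein (-0.57, SE 0.22, adjusted p = 0.0926), which limma voom did (adjusted p = 0.0436). Over the 60 tested genes of the 5 lists, edgeR called 11 between COMB and OAT-1746, where it called 15.8% of all genes, and 0 in the other comparisons. DESeq2 and limma voom each called 15 there, beside 24.4% and 22.4% of all genes. At an unadjusted p under 0.05 there were 20 of the 60 between OAT-1746 and CTR (11 higher, 9 lower) beside 32.3% of all genes, with 10 calls by DESeq2 beside 15.7% and 0 by limma voom. There were 4 of the 60 for anti-PD-1 against CTR beside 5.12% of all genes, 7 for COMB against CTR beside 6.58% and 8 for COMB against anti-PD-1 beside 7.23%, with 0 calls by either other tool in these 3. For the interaction there were 14 beside 26.2%, with 4 calls by DESeq2 beside 8.4% and 2 by limma voom beside 3.41%.

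The tested genes most like each member over the 9 libraries, by Pearson's r of log2 CPM among 9417 genes, are given as a description without a test, since libraries of a group share their treatment. They were Spg20, Ctc1 and Smap2 for Vsir (r from 0.990 to 0.997), Pfkl, Inpp5j and Slc31a1 for Pdcd1lg2 (0.986 to 0.989), and Gbp8, Serpina3f and Rnpc3 for Cd274 (0.973 to 0.987). They were Trem3, Mlkl and Gpr141 for Cd40 (0.994 to 0.996), Zfp738, Creb3l2 and Pitpnc1 for Havcr2 (0.983 to 0.991), and Fmnl3, Hs6st1 and Ets1 for Sirpa (0.988 to 0.992). For Lgals9 they were Epsti1, A530064D06Rik and 4930523C07Rik (0.971 to 0.979), for Cd86 Map1lc3a, Selenoo and Fam8a1 (0.925 to 0.943), for Pdcd1 Ptafr, Ifit3b and Pcyt1a (0.891 to 0.937), and for Cd80 Stk40, Phlda3 and Htra3 (0.859 to 0.874). Cd80 and Pdcd1 had the least similar partners.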

How the data were processed

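The authors deposited whole-number counts, 1 per gene and library, without normalization. Per the submitters' notes and the study's methods, Trimmomatic was used for trimming, STAR for alignment (mm10), Picard for flagging duplicates and HTSeq for strand-specific counting of pairs. For anti-PD-1 replicate 2 the treatment label gives a different antibody target, so its title decided the group. Of 53801 genes, 53620 were found in GENCODE M21, 21890 of them protein-coding, and filterByExpr (minimum count 10) kept 12538. After TMM normalization, group means were fitted by edgeR's quasi-likelihood method (version 4.0.16, R 4.3.3), and p-values were adjusted by Benjamini-Hochberg over all tested genes. DESeq2 1.42.0 and limma 3.58.1 (voom with quality weights) were alternatives, beside other scalings, filters and gene types, a replicate block and leaving out each library. Steps were tested on simulated data. The members and lists were chosen with earlier results of these data known. Named genes were the 10 members, up to 5 called genes per wider list or, failing 3, those of smallest p between OAT-1746 and CTR, and the 3 genes most like each member (mean of at least 5 CPM, prior count 2). The study's methods call the replicates biological, and whether each is 1 mouse was not stated, so p-values measure the spread between these samples. The levels of 2 marker genes are not reported here.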

Additional observations from a re-analysis of the deposited data

How the results depend on the processing

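With 2 or 3 libraries per group, most calls depended on the tool and on single libraries, and the cause was not tested unless stated. DESeq2 called 1972 genes and 2 members for OAT-1746 against CTR (edgeR 0 and 0), 14 genes for anti-PD-1 against CTR, 35 for COMB against CTR, 47 for COMB against anti-PD-1, 3062 for COMB against OAT-1746 (edgeR 1979) and 1053 genes and 1 member for the interaction (edgeR 45 and 0). limma voom called 2 genes for COMB against CTR, 35 for COMB against anti-PD-1 and 428 for the interaction. Without the low-count filter edgeR called 587 genes for OAT-1746 against CTR, 2 for COMB against CTR, 2 for COMB against anti-PD-1 and 146 for the interaction. A fit of only the groups compared, which has fewer libraries, called 5 genes for COMB against CTR, 17 for COMB against anti-PD-1, and 30 genes and 0 members for COMB against OAT-1746. For the interaction, library size only gave 24 genes and all gene types 18.

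Leaving out 1 library at a time, with a lone library assumed to vary like the others, gave 0 to 3647 genes and 0 to 5 members for OAT-1746 against CTR, 0 to 43 genes for COMB against anti-PD-1, 1 to 4058 genes and 0 to 6 members for COMB against OAT-1746, and 0 to 2756 genes and 0 to 3 members for the interaction. The highest value came without OAT-1746 replicate 1 in each of these. For COMB against OAT-1746 the lowest count of genes came without COMB replicate 3.

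The replicate numbers were tried as a block. Deviations of same-numbered libraries from their group means correlated at -0.349 to 0.0999 over 12 pairs of libraries, where pairs between groups of 2 give the same value for both numbers by construction. With the replicate block edgeR called 2 genes and 0 members for COMB against OAT-1746 and 0 genes for the interaction.

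The 15 member fold changes with an unadjusted p under 0.05 kept their direction under every alternative run, of which there were up to 19. Of the other 45, 23 changed sign under at least 1 alternative, so no direction is given for these. The adjusted p over the alternatives ranged from 2.71e-06 to 0.217 for Pdcd1lg2 and from 0.00919 to 0.246 for Vsir in COMB against OAT-1746. Depth limits Pdcd1 and Pdcd1lg2 most, with 34 and 30 counts in their lowest libraries.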
